A study of Homo sapiens with 6 samples.

Results

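The mitosis and spindle genes described here are a list of 48 human genes that drive or carry out cell division, taken by name as given. Of these, 46 were measured by probe sets that name that gene alone, out of 12165 genes measured in all, and 79 probe sets cover them. KIF15, a spindle kinesin, had 1 probe set, which also names another gene, and UBE2C, the ubiquitin-conjugating enzyme of anaphase, was named by none, so neither is analysed here. The cells were LNCaP, an androgen-responsive human prostate cancer line, and so represent a single line. They were exposed for 6 h either to 20 µM gedunin, a plant limonoid known from the neem tree (3 arrays), or to its solvent DMSO (3 arrays), and total RNA was read on Affymetrix arrays. The labels number the arrays of each treatment as biological replicates without naming separate cultures, so p-values cover only the variation among the arrays at hand. Both treatments were given in RPMI with fetal bovine serum, and the labels name no other agent.

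A dividing cell makes most of these mRNAs late in its cycle, shortly before mitosis. Cyclins A and B switch on CDK1, which with the Polo and Aurora kinases opens mitosis, and kinesins and spindle proteins then build the bipolar spindle. The spindle checkpoint holds back the anaphase-promoting complex until every kinetochore is attached. Once released, that complex marks cyclin B and securin for destruction, and separase cuts the cohesin that joins sister chromatids. Many of these genes are held under common control by the MuvB complex with MYB and FOXM1, acting through CHR elements and CCAAT boxes close to the transcription start, and their summed mRNA is widely used as a sign of proliferation.

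The array labelled DMSO 3 does not read like LNCaP cells and is shown apart, as the list's rule sets out. Over 10 luminal prostate markers the summed intensity was 14745 to 15352 on the 3 gedunin arrays, 15760 to 16258 on DMSO 1 and 2 and 262 on the array labelled DMSO 3. Over 10 leukocyte markers it was 764 to 862 with gedunin, 937 to 966 on DMSO 1 and 2 and 31654 on the array labelled DMSO 3, and 8 of these 10 lay below the array median on each of the other 5 arrays. Endothelial markers were below that median on all 5 arrays for 4 of 4 genes and fibroblast markers for 4 of 5, with 1 fibroblast gene called higher with gedunin. Of the 10 luminal markers 2 were called higher and 3 lower. Spearman correlations of the array labelled DMSO 3 with the other 5 arrays were 0.812 to 0.819, against 0.965 to 0.980 among those 5. The comparison therefore sets gedunin 1 to 3 against DMSO 1 and 2, with limma over all 22215 probe sets. A gene was represented by its brightest probe set, and an adjusted p (Benjamini-Hochberg) of 0.05 was the threshold for a call. Values are RMA intensities on a linear scale, fold changes are on the log2 scale, and errors of a fold change are limma's moderated standard errors with n = 3 and 2 arrays. The median intensity over the 5 arrays was 31.5, and fold changes of probe sets near or below it can be compressed.

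After 6 h of gedunin, a minority of the mitosis and spindle genes passed the test for a change, mostly downward and mostly by little. Of the 46 measured, 14 fell and 3 rose, and 29 did not pass the test. Over all genes, 17.6% were called, 9.36% lower and 8.24% higher, while 30.4% of these genes were called lower and 6.52% higher. Their median log2 fold change was -0.21, with 35 negative and 11 positive values, and that of all genes was -0.02. CCNA2, the cyclin of S phase and mitotic entry, fell furthest (-1.20), followed by the separase gene ESPL1 (-0.90). The CDK-binding subunit genes CKS1B (0.84) and CKS2 (0.41) and the kinesin gene KIF14 (0.50) rose. In bulk RNA, fewer cells in late cell cycle and less of an mRNA per cell cannot be told apart.

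These genes are brighter than most, since 1 of the 46 had a mean below the median intensity, against 5271 of all 12165 genes. With probe sets below the median of mean log2 intensity left out, 15 of 45 fell (33.3%) and 4 rose (8.89%), while 17.5% of all genes were called lower and 14.7% higher. Unless stated, the shares over all genes set beside roles and lists below come from the fit without this filter and so include dim genes. All 3 gedunin arrays lay below both DMSO arrays for 25 of the 46 genes (54.3%; 26.0% of all genes) and above both for 7 (20.3% of all genes). The split between directions depended on the scaling. Centring each array on its median gave 8 lower and 4 higher members, with 8.44% and 8.83% of all genes. Centring on GAPDH and ACTB gave 25 lower and 2 higher members, with 25.8% and 5.36% of all genes. Under the GAPDH and ACTB centring the median over all genes was -0.19 and that of the 46 genes -0.38. Since each centring shifts all genes of an array by 1 constant, it moves the calls but not the distance of the 46 genes from all genes, -0.19.

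With 5 arrays, most of these calls depended on single arrays. CCNA2, ESPL1 and CKS1B were called in all 5 fits with 1 array left out, and the other 14 called members lost their call in at least 1. Without gedunin 1 the test called 8 members (14.1% of all genes), having lost CCNB1, CDK1, PLK1, BUB1B, MAD2L1, KIF18B, KIF20A, KIF23, CENPF and NCAPD2. Without gedunin 2 it called 9 (14.6% of all genes) and lost CCNB1, CDK1, CDC25A, BUB1B, MAD2L1, KIF18B, KIF23 and CENPF, and without gedunin 3 it called 13 (15.9%) and lost CDK1, CDC25A, KIF18B and KIF23. Without DMSO 1 it called 7 (9.48%) and lost CCNB1, CDK1, CDC25A, PLK1, MAD2L1, KIF14, KIF20A, KIF23, CENPF, CKS2 and NCAPD2. Without DMSO 2 it called 5 (9.72%) and lost CCNB1, CDK1, CDC25A, PLK1, AURKA, BUB1B, MAD2L1, KIF18B, KIF20A, KIF23, CENPF and CKS2. In the fits with 1 DMSO array left, that array is assumed to vary like the gedunin arrays. AURKA had an adjusted p of 0.0670 without DMSO 2 and KIF14 of 0.0811 without DMSO 1 (limma). CKS2 had 0.0844 without DMSO 1 and 0.0901 without DMSO 2.

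**Figure D1:**
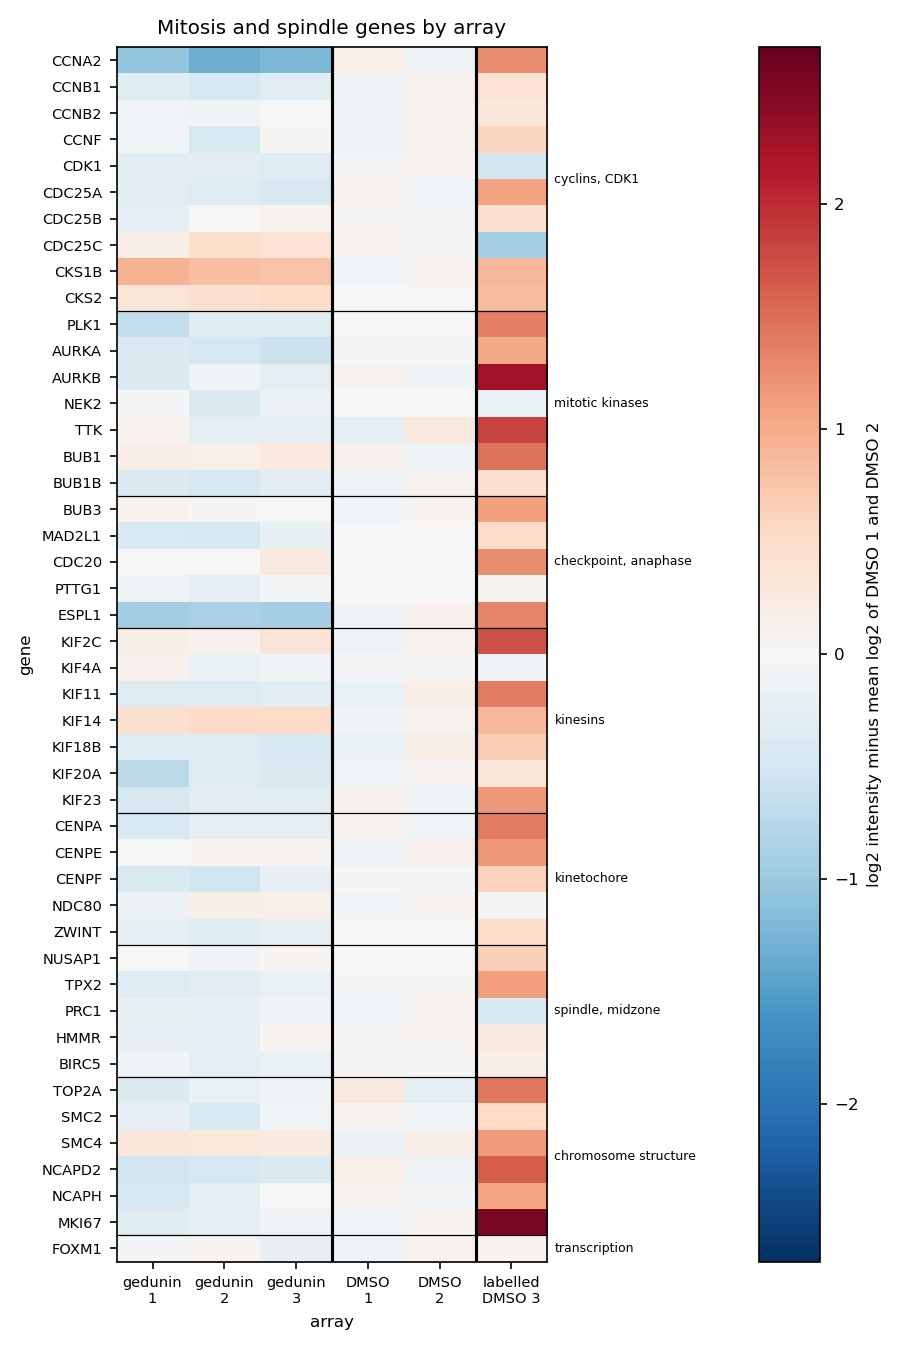
Log2 intensity of each of the 46 genes (rows, grouped by role) on each array (columns), as the difference from the mean of DMSO 1 and DMSO 2, in colour. The gedunin columns are mostly pale blue, with CCNA2 and ESPL1 darkest and CKS1B, CKS2 and KIF14 in shades of red, and the column of the array labelled DMSO 3 is red for most genes.

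Among the cyclins, CDK1 and its activators, 4 of 10 genes fell (40%) and 2 rose (20%), beside 9.36% lower and 8.24% higher over all genes. CCNA2 read 84.5, 71.8 and 76.9 on gedunin 1 to 3, against 194 and 163 on DMSO 1 and 2, and 427 on the array labelled DMSO 3. Every gedunin array thus lay far below both DMSO arrays, with a 2.29-fold lower level in gedunin and a log2 fold change of -1.20 ± 0.11 (adjusted p = 6.45e-05). Its second probe set, dimmer than the first, read 54.6, 46.2 and 38.5 with gedunin against 78.5 and 71.7 with DMSO, and also fell (-0.71 ± 0.14, adjusted p = 0.00620). The B cyclins, which carry CDK1 through mitosis itself, had smaller fold changes. CCNB1 averaged 547 ± 28.5 with gedunin (SD, n = 3) and 695 ± 69.2 on DMSO 1 and 2 (SD, n = 2), a fall of 0.35 on the log2 scale (adjusted p = 0.0414, and up to 0.293 with 1 array left out). CCNB2 read 549.7, 542 and 580.1 with gedunin and 541 and 617 with DMSO, so that the groups overlapped (-0.05, 95% interval -0.26 to 0.16).

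CDK1, the kinase these cyclins activate, read 845, 838 and 802 with gedunin against 989.8 and 1058 with DMSO and fell by 0.30 (adjusted p = 0.0420). Its other 2 probe sets had -0.17 and -0.24 and were not called, although on all 3 of its probe sets every gedunin array was below both DMSO arrays. The CDC25 phosphatases remove the inhibitory phosphates from CDK1, and their genes differed among themselves. CDC25A averaged 86.7 ± 4.29 with gedunin and 111 ± 7.14 with DMSO, a fall of 0.36 (adjusted p = 0.0272, and up to 0.203 with 1 array left out). CDC25B had -0.05 ± 0.11 with overlapping groups. CDC25C stood on the other side, at 66.4, 81.4 and 75.9 with gedunin against 60.0 and 56.5 with DMSO, just short of the threshold (0.35 ± 0.11, adjusted p = 0.0504). CCNF, the F-box cyclin that limits centrosome duplication, is described with the probe sets that disagree.

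CKS1B and CKS2 encode small proteins that bind CDKs, and CKS1B also helps the SCF ubiquitin ligase mark the CDK inhibitor p27 for destruction. CKS1B read 768, 705 and 681 with gedunin against 378 and 424 with DMSO. The groups did not overlap, and the level was 1.79-fold higher with gedunin (0.84 ± 0.10, adjusted p = 2.93e-04). CKS2 read 1649, 1751 and 1849 with gedunin against 1324 and 1314 with DMSO, likewise with no overlap (0.41 ± 0.09, adjusted p = 0.0131). Centring on GAPDH and ACTB left CKS1B called (0.67) and CKS2 not (0.24, adjusted p = 0.117). With each of CKS1B and CKS2, 1 probe set names the gene.

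**Figure D2:**
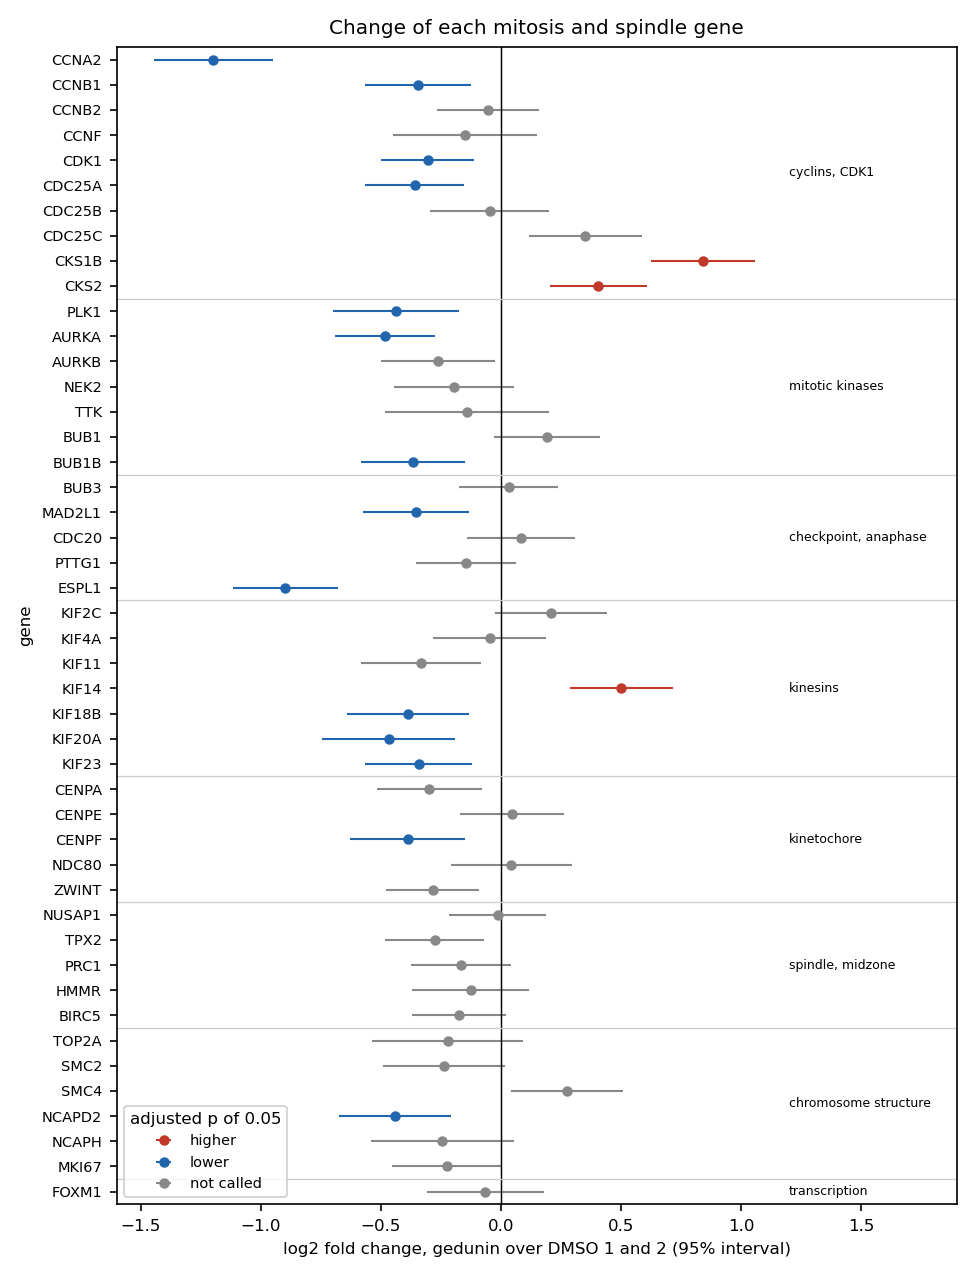
Log2 fold change of gedunin over DMSO 1 and 2 for each of the 46 genes with its 95% interval (limma), grouped by role and coloured by call. CCNA2 at -1.20 and ESPL1 at -0.90 stand left of the other genes, CKS1B at 0.84 stands right of them, and FOXM1 at -0.06 has an interval across 0.

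Of the 7 mitotic kinases, 3 fell (42.9%, against 9.36% of all genes) and 0 rose (8.24% of all genes). AURKA, which matures centrosomes and helps build the spindle, read 189, 181 and 166 with gedunin against 244 and 255 with DMSO, with no overlap (-0.48 ± 0.09, adjusted p = 0.00621). PLK1, the Polo kinase of mitotic entry and exit, read 172, 217 and 219 against 272 and 273, so gedunin 1 was the lowest array (-0.44 ± 0.12, adjusted p = 0.0314, and up to 0.160 with 1 array left out). BUB1B, which encodes the checkpoint protein BUBR1, averaged 183 ± 7.91 with gedunin and 236 ± 23.3 with DMSO (-0.37 ± 0.10, adjusted p = 0.0295, and up to 0.236 with 1 array left out). AURKB, the kinase of the chromosome passenger complex, had -0.26 ± 0.11 (adjusted p = 0.144), the centrosome kinase gene NEK2 had -0.19 ± 0.11 and the checkpoint kinase gene TTK -0.14 ± 0.15. The checkpoint kinase gene BUB1 had 0.19 ± 0.10, with all gedunin arrays above both DMSO arrays but no call (adjusted p = 0.255).

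In checkpoint and anaphase control, 2 of 5 genes fell (40%, against 9.36% of all genes) and 0 rose (8.24% of all genes). ESPL1, the protease that opens cohesin rings at anaphase, read 63.9, 66.9 and 66.1 with gedunin against 112 and 133 with DMSO, and 307 on the array labelled DMSO 3. The gedunin arrays were close together and 1.86-fold lower than DMSO 1 and 2 (-0.90 ± 0.10, adjusted p = 2.03e-04). Its second probe set gave nearly the same value (-0.88 ± 0.09, adjusted p = 1.22e-04), from 52.4, 56.7 and 54.9 with gedunin against 104 and 97.1 with DMSO. PTTG1 encodes securin, the inhibitor that separase is bound to before anaphase, and read 1373, 1269 and 1452 against 1517 and 1498 without passing the test (-0.15, 95% interval -0.35 to 0.06). MAD2L1, which encodes the checkpoint effector MAD2, averaged 51.4 ± 4.66 with gedunin and 65.4 ± 0.745 with DMSO and fell by 0.35 (adjusted p = 0.0385, and up to 0.188 with 1 array left out). CDC20, the activator of the anaphase-promoting complex that MAD2 restrains, had 0.08 (95% interval -0.14 to 0.31), and the checkpoint gene BUB3 had 0.03 (95% interval -0.17 to 0.24). The other 3 probe sets of BUB3 had -0.11, -0.22 and -0.17, each with every gedunin array below both DMSO arrays but no call.

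**Figure D3:**
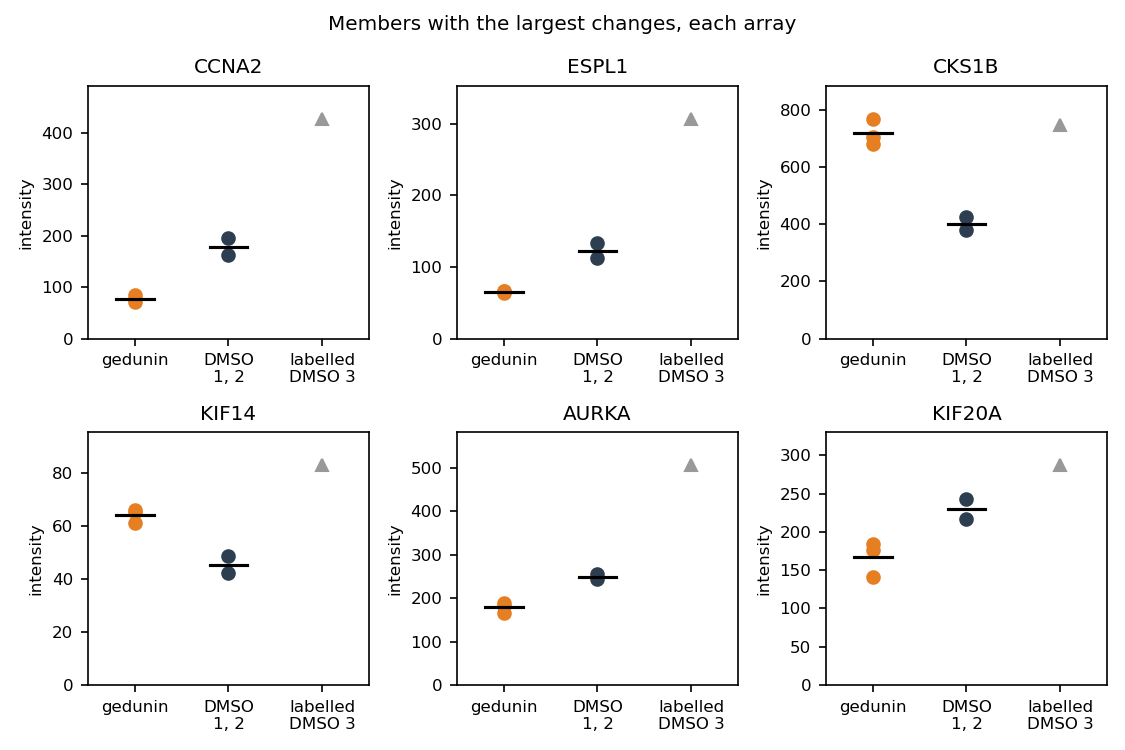
Intensity on each array (linear scale from 0) of the 6 members with the largest absolute log2 fold change, with bars at the means of gedunin 1 to 3 and of DMSO 1 and 2. For CCNA2, ESPL1, AURKA and KIF20A all gedunin arrays lie below both DMSO arrays, for CKS1B and KIF14 above both, and the array labelled DMSO 3 lies above the DMSO arrays throughout.

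Among the kinesins, the motors of spindle and midzone, 3 of 7 fell (42.9%, against 9.36% of all genes) and 1 rose (14.3%, against 8.24%). KIF14, which acts in cytokinesis, read 61.4, 66.2 and 65.4 with gedunin against 42.3 and 48.8 with DMSO (0.50 ± 0.10, adjusted p = 0.00612). The groups did not overlap, and KIF14 was also called with arrays centred on GAPDH and ACTB (0.33, adjusted p = 0.0365). KIF20A, which carries passenger proteins to the midzone, read 141, 184 and 176 against 217 and 243 (-0.47 ± 0.12, adjusted p = 0.0300, and up to 0.220 with 1 array left out). KIF18B, a motor that shortens astral microtubules, fell by 0.39 (adjusted p = 0.0473, and up to 0.362 with 1 array left out), at 35.4, 35.3 and 33.1 against 39.9 and 51.1. KIF23, the centralspindlin motor, fell by 0.34 (adjusted p = 0.0453) at levels below the median intensity, 20.5 to 22.5 with gedunin against 29.7 and 25.5 with DMSO, and kept its call in 0 of the 5 fits with 1 array left out, as did CDK1. KIF11, which pushes the spindle poles apart, had -0.33 ± 0.11 and was not called (adjusted p = 0.0793). The chromokinesin gene KIF4A had -0.05 ± 0.11, and KIF2C, a microtubule depolymerase of the centromere, had 0.21 ± 0.10 (adjusted p = 0.238).

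Of 5 centromere and kinetochore genes, 1 fell and 0 rose, and 20% were thus called. Over all genes the share was 17.6%, and 32.2% with dim probe sets left out. CENPF, a large coiled-coil protein of the outer kinetochore, read 246, 226 and 282 with gedunin against 336 and 320.0 with DMSO (-0.39 ± 0.11, adjusted p = 0.0366, and up to 0.209 with 1 array left out). ZWINT, a kinetochore scaffold protein, read 453, 423 and 458 against 540.1 and 541, with no overlap but no call (-0.28 ± 0.09, adjusted p = 0.0559). CENPA, the histone H3 variant of centromeres, had -0.30 ± 0.10 (adjusted p = 0.0721). The kinetochore motor gene CENPE (0.05 ± 0.10) and NDC80, the microtubule-binding kinetochore gene (0.04 ± 0.11), had overlapping groups.

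Of the 5 genes of spindle assembly, midzone and the chromosome passenger complex, 0 were called with the probe set used for the gene, against 17.6% of all genes. All 5 values were negative, from -0.28 to -0.01, and 1 of the 5, TPX2, had an unadjusted p below 0.05 (limma). TPX2, the activator of Aurora A on the spindle, had -0.28 ± 0.09 (adjusted p = 0.0774), PRC1, which bundles midzone microtubules, -0.17 ± 0.09, and BIRC5, the passenger protein survivin, -0.17 ± 0.09. HMMR, a spindle protein that is also a hyaluronan receptor, had -0.13 ± 0.11, and NUSAP1, which binds microtubules near chromatin, -0.01 ± 0.09. The second probe set of NUSAP1 had -0.36 ± 0.12, with every gedunin array below both DMSO arrays but no call (limma, adjusted p = 0.0801).

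Of 6 genes of chromosome structure, 1 fell and 0 rose, and 16.7% were thus called. Over all genes the share was 17.6%, and 32.2% with dim probe sets left out. NCAPD2, a condensin subunit, read 145, 150.3 and 158 with gedunin against 226 and 186 with DMSO (-0.44 ± 0.10, adjusted p = 0.0187). It lost its call without gedunin 1 or DMSO 1, with an adjusted p of up to 0.186. The condensin genes SMC2 (-0.24 ± 0.11), NCAPH (-0.24 ± 0.13) and SMC4 (0.28 ± 0.10, adjusted p = 0.117) were not called. TOP2A, the topoisomerase that untangles chromosomes, had -0.22 ± 0.14, and MKI67, the surface coat protein of mitotic chromosomes known as Ki-67, had -0.22 ± 0.10 (adjusted p = 0.188). FOXM1, the transcription factor of many genes on this list, read 220.0, 239 and 197 with gedunin against 214 and 243 with DMSO (-0.06, 95% interval -0.31 to 0.18). Next to the threshold, KIF18B (adjusted p = 0.0473) was the last member called and CDC25C (adjusted p = 0.0504) the first not called.

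Of the 46 genes, 20 had several probe sets, and those of 7 disagreed in call and those of 9 in sign. None had 1 probe set called higher and another called lower. CCNF was not called on its brighter probe set (76.9, 61.0 and 83.5 with gedunin against 76.1 and 86.4 with DMSO, -0.15 ± 0.13). The dimmer probe set of CCNF fell by 0.81 (adjusted p = 1.84e-04), from 19.9, 21.0 and 19.6 against 34.5 and 36.4, so that with gedunin it lay below the median intensity of the arrays.

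BIRC5 was called on 1 of 3 probe sets, which read 123, 115 and 122 with gedunin against 192 and 177 with DMSO (-0.62 ± 0.09, adjusted p = 0.00115). The other 2 had -0.17 and -0.24, with every gedunin array below both DMSO arrays on each of the 3. MKI67 was called lower on 1 of 4 probe sets, read at 26.2, 26.2 and 27.8 against 39.7 and 39.6 (-0.57 ± 0.09, adjusted p = 0.00152), and had -0.40, -0.22 and 0.02 on the others. AURKA was called on 1 of 3, had -0.27 on the second, and had 0.31 (adjusted p = 0.137) on the third, which lay below the median intensity. CENPF and CDC25A fell on their bright probe set, while their dim ones had 0.05 and 0.13 for CENPF and 0.01 for CDC25A. CDC25C, BUB1, BUB3, HMMR and SMC2 disagreed in sign with no probe set called. Counting a gene as called where any of its probe sets passed gave 17 members lower and 3 higher, against 10.8% and 9.21% of all genes counted the same way, a rule chosen after seeing the data.

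**Figure D4:**
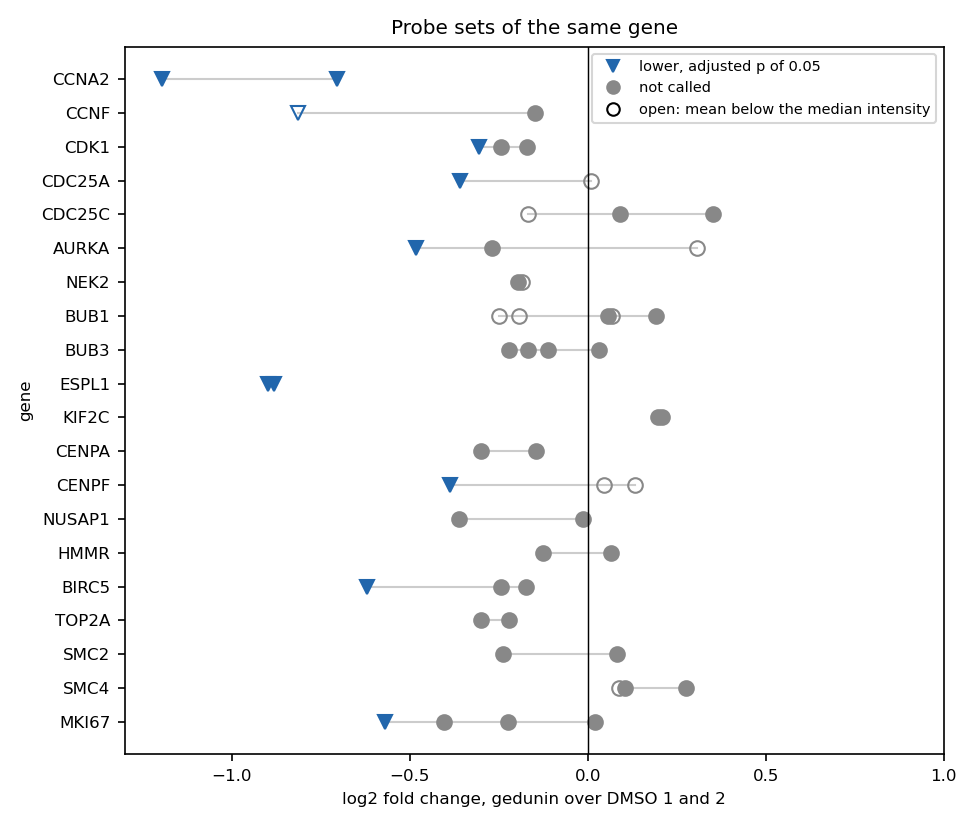
Log2 fold change of gedunin over DMSO 1 and 2 for every probe set of the 20 genes with several probe sets (1 row per gene), marked by call, with open symbols for a mean below the median intensity. ESPL1's 2 probe sets nearly coincide, CCNA2's are both called lower, and those of CCNF, BIRC5, MKI67 and AURKA lie well apart.

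Promoter sequence was examined for the elements known to govern these genes. RefSeq promoter windows (GRCh38.p14, from 250 bases before to 50 bases after a transcription start) were found for 41 of the 48 genes, with 53 windows in all, and AURKA, BUB3, TTK, TPX2, UBE2C, BIRC5 and FOXM1 had none. The core letters of the CHR element, searched as TTTGAA and TTTAAA, and the CCAAT box, searched as CCAAT, were looked for on both strands. A CHR core was found in 40 of the 53 windows (75.5%) and in 19.3% of the 14283 windows of all genes named on the array, the measured members among them. CCAAT was found in 75.5% against 35.2%, and both in 60.4% against 7.68%. These shares count windows and not genes. Some windows of the same gene overlap, as for PTTG1 and ZWINT, so that a stretch of letters can count more than once. A CHR core and CCAAT shared bases in 1 of the 53 windows. A match is a description of letters and was not tested as a site. The 100 bases before the start are printed below for the largest fall (CCNA2), the next largest (ESPL1), a mitotic kinase that fell (PLK1) and the CDK-binding genes that rose (CKS1B and CKS2), so that genes that moved in opposite directions can be read side by side. Capitals mark the searched letters on either strand (a CHR core on the minus strand reads TTCAAA here and a CCAAT box on the minus strand reads ATTGG), and each line runs 5′ to 3′ on the gene's strand. The stretches lie at chr4:121823884-121823983 (minus strand) for CCNA2, chr12:53268199-53268298 (plus) for ESPL1, chr16:23678789-23678888 (plus) for PLK1, chr1:154974581-154974680 (plus) for CKS1B and chr9:89311095-89311194 (plus) for CKS2.
CCNA2: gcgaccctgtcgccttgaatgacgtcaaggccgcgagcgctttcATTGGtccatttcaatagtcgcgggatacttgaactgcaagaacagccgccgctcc
ESPL1: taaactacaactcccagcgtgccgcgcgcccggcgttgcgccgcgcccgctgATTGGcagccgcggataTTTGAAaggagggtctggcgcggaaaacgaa
PLK1: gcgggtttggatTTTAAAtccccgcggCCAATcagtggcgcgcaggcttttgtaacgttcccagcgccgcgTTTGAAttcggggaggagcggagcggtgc
CKS1B: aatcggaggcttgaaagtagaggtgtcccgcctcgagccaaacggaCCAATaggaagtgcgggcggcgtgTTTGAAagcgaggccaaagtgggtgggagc
CKS2: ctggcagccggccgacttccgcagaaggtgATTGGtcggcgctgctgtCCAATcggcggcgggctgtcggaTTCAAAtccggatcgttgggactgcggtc

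Of these, CKS1B and CKS2, which rose, carry TTTGAA at positions -30 and -29 from the start, on the plus strand in CKS1B and the minus strand in CKS2. ESPL1 and PLK1, which fell, carry it at -31 and -29. Each of the 4 has CCAAT further upstream, the nearest at -54 in CKS1B, -52 in CKS2, -48 in ESPL1 and -73 in PLK1. In the CCNA2 window the searched CHR letters were not found, and CCAAT stood at -56 on the minus strand. Close variants such as CTTGAA, which the printed CCNA2 stretch holds, were not searched. The search therefore does not show that CCNA2 lacks a CHR element. CKS1B, CKS2, ESPL1 and PLK1 were picked by their direction of change, and whether TTTGAA bears on direction was not tested. Restricted to the 100 bases before the start, a window chosen after seeing the matches, both motifs were present in 37.7% of the 53 windows and in 1.33% of all windows.

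On 6 further lists of mitotic genes, 115 genes were measured, at most 3 of each list with a mean below the median intensity. Over all genes 17.6% were called, and 32.2% with dim probe sets left out. Of the 115 genes, 25 fell and 7 rose, with a median log2 fold change of -0.12, and the 27.8% called lies between these shares. In place of these 32 calls there were 19 without gedunin 1, 19 without gedunin 2, 27 without gedunin 3, 6 without DMSO 1 and 13 without DMSO 2, and the 6 were 3 lower and 3 higher. Among the other kinetochore and centromere genes, 6 of 20 fell (30%) and 1 rose (5%). CENPB, which binds centromeric DNA, had -0.49, HJURP, the chaperone that deposits CENPA, -0.44, and CENPI -0.38, all called lower (the other probe set of CENPI was not called), and MIS12, a kinetochore assembly gene, rose by 0.40. Among the other spindle, centrosome and midzone genes, 8 of 28 fell (28.6%) and 1 rose (3.57%). RANGAP1, which stimulates GTP hydrolysis by Ran, read 508, 487 and 499.6 with gedunin against 247 and 202 with DMSO and rose by 1.16 ± 0.10 (adjusted p = 5.40e-05). GTSE1, a microtubule-binding regulator of the spindle, fell by 0.65 (adjusted p = 0.00194), and 3 of its other 4 probe sets were also called lower. The passenger gene CDCA8 fell by 0.55 and the kinesin gene KIFC1 by 0.55.

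Of 13 genes of the anaphase-promoting complex and its inhibitors, 4 fell (30.8%) and 0 rose: the subunit genes ANAPC2 (-0.68), CDC27 (-0.68) and ANAPC1 (-0.35), and FBXO5 (-0.39), whose product EMI1 inhibits the complex. FBXO5 fell at levels below the median intensity, 18.8 to 20.9 with gedunin against 23.7 and 27.9 with DMSO. The fall of CDC27 was seen on 1 of its 5 probe sets, and the other 4 were not called. Of 18 regulators of cell cycle transcription, 4 fell and 0 rose, and the share called, 22.2%, compares with 17.6% of all genes. TFDP1, the DNA-binding partner of E2F factors, read 246, 256 and 282 with gedunin against 427 and 409 with DMSO and fell by 0.68 (adjusted p = 9.05e-04). E2F4, the E2F factor of repressor complexes, fell by 0.51, E2F5 by 0.41 and NFYA, a subunit of the factor that binds CCAAT, by 0.37. The 1 other probe set of E2F4 and that of E2F5 were not called, and the 3 others of NFYA were called lower.

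Of 15 other cohesin and condensin genes, 2 fell and 2 rose (13.3% each), beside 9.36% lower and 8.24% higher over all genes. The cohesin genes RAD21 (-0.36) and SMC3 (-0.32) fell, and STAG2 (0.37) and PDS5B (0.56) rose. The 2 other probe sets of STAG2 were called higher as well, and those of the other 3 genes were not called. Of 21 other genes of mitotic entry and exit, 1 fell (4.76%, against 9.36% of all genes) and 3 rose (14.3%, against 8.24%). CDC14B, a phosphatase of mitotic exit in yeast whose human role is less settled, read 90.4, 96.5 and 74.8 with gedunin against 43.1 and 42.4 with DMSO and rose by 1.02 ± 0.11 (adjusted p = 2.49e-04). Of the 4 other probe sets of CDC14B, 2 were also called higher and the rest were not called. The phosphatase catalytic subunit gene PPP2CA rose by 0.36 on 1 of its 2 probe sets, MNAT1 of the CDK-activating kinase by 0.40, and BORA, the activator of Aurora A toward PLK1, fell by 0.36 at levels below the median intensity. Of the genes named from these 6 lists, RANGAP1, GTSE1, CDC14B and TFDP1 were called in all 5 fits with 1 array left out, and each of the others lost its call in at least 1.

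**Figure D5:**
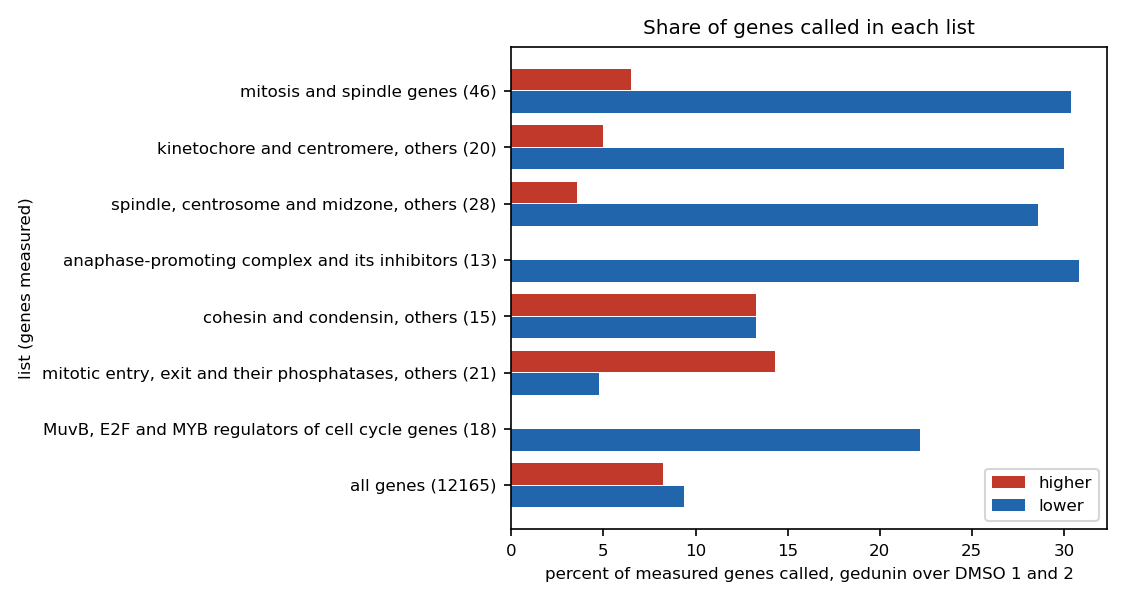
Percent of measured genes called higher and lower with gedunin (adjusted p of 0.05) for the mitosis and spindle genes, the 6 further mitotic lists and all genes, with the number measured in brackets. The bar of genes called lower is at 30.4% for the mitosis and spindle genes and at 9.36% for all genes, and the list of other genes of mitotic entry and exit has more genes called higher than lower. The bars of all genes include dim probe sets, and without these 17.5% of all genes were called lower and 14.7% higher.

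On the array labelled DMSO 3, shown apart, proliferation mRNAs were mostly more abundant. Of the 46 genes, 21 were at least 2-fold above the mean of DMSO 1 and 2 and 0 at least 2-fold below, while 8.94% of all genes lay that far above and 13.0% that far below. The median log2 difference of the 46 genes was 0.86, against 0.0072 over all genes. Of the 46 genes, 39 read above both DMSO 1 and DMSO 2, as did 5427 of all 12165 genes. MKI67 read 1135 there, against 184 and 206 on DMSO 1 and 2, and AURKB read 306 against 67.9 and 59.9. In contrast CDK1 read 721 against 989.8 and 1058, CDC25C 30.8 against 60.0 and 56.5, and PRC1 256 against 332 and 368. The comparison rests on 1 array and has no test. With that array counted as a control, limma called 0 of the 46 genes (1.67% of all genes), and 11 had an unadjusted p below 0.05, all of them lower, against 13.4% of all genes. The 5-array fit had 24 members at that unadjusted level, against 30.4% of all genes. CCNA2 then had -1.62 ± 0.37 (adjusted p = 0.151), ESPL1 -1.34 ± 0.39 and CKS1B 0.54 ± 0.27.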

How the data were processed

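The deposited table holds 1 intensity per probe set and array. Per the submitters' processing notes, the authors used RMA, with its version not given in the sources used here. The deposited intensity values were linear, from 11.0 upward, and log2 was taken here. Which arrays were processed together, detection calls and raw array files were not given in the sources used here. Arrays have no read depth, and precision is limited by their number. Upper quartiles lay between 128 and 146.

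Probe sets were named with the platform annotation of 2016. Of 22215, 19724 named 1 gene, 568 several and 1923 were not listed. Entrez identifiers of 19707 matched RefSeq (GRCh38.p14), which changed 0 symbols.

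Gedunin 1 to 3 were compared with DMSO 1 and 2 by limma 3.58.1 (R 4.3.3; lmFit and eBayes, no trend, no filter), with p-values adjusted by Benjamini-Hochberg over all probe sets. The probe set with the highest mean log2 value over the 5 arrays represented a gene. The members, lists and the choice of arrays were made with earlier results of these data known. All members are given; from each further list up to 4 called genes with the largest change are named, and marker sums and members on the array labelled DMSO 3 are descriptions. On simulated data of 5 arrays and 22215 probe sets, 34, 90, 100 and 100 percent of log2 changes of 0.5, 1, 2 and 4 were recovered, with 8 false calls. The simulation held 50 changed probe sets of each size, while 3396 were called in the data, so recovery in the data can differ.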

Additional observations from a re-analysis of the deposited data

Results flagged for a closer look

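On the array labelled DMSO 3, which the comparison leaves out, the leukocyte markers summed to an intensity of 31654, above the 937 to 966 of DMSO 1 and 2. On the same array 21 mitosis and spindle genes read at least 2-fold above the mean of DMSO 1 and 2. Both stand out as signal on an array that the main comparison does not use, and the fit that counts it as a control is given as an alternative. What that array holds was not tested.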

How the results depend on the processing

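With 3 and 2 arrays a group, small changes can be missed, and dim probe sets can have compressed folds. The simulated recovery of 34 percent at a log2 change of 0.5 came from 50 changed probe sets per size. Recovery in these data, where 3396 probe sets were called, was not measured. The main values were 2142 genes, 17 members and 32 genes of the other mitotic lists called, and a members' median of -0.21. With all 6 arrays these were 203, 0 and 1 with a median of -0.39, and CDC20 (-0.33), BUB1 (-0.29), BUB3 (-0.33), KIF2C (-0.36), CENPE (-0.34) and SMC4 (-0.11) changed sign. The replicate block called 1853 genes and 10 members, all among the 17, and turned FOXM1 (0.0079) and NDC80 (-0.0037). The labels give only numbers, which 2 numbered pairs cannot show to be pairs (correlation 0.0033 over probe sets). Centring on GAPDH and ACTB called 3791 genes, 27 members and 51 others, with a median of -0.38, and turned CDC20 (-0.086), BUB3 (-0.14), CENPE (-0.12) and NDC80 (-0.13). Median centring turned NUSAP1 (0.0087) and a second quantile normalization BUB3 (-0.0092). A threshold of 0.01 called 1208, 5 and 8. Without _x_at and _s_at probe sets, fewer genes are tested: 1274, 9 and 16 were called, and CDC25C (-0.17), AURKA (0.31), CENPF (0.046), SMC2 (0.082) and PDS5B (-0.010) turned. The mean over probe sets turned BUB1 (-0.025) and BUB3 (-0.12). Leaving out 1 array gave 1153 to 1939 genes, 5 to 13 members, 6 to 27 others and medians of -0.25 to -0.15. Its ranges crossed 0 for CDC25B (-0.11 to 0.053), KIF4A (-0.13 to 0.015), NUSAP1 (-0.047 to 0.034), NDC80 (-0.021 to 0.14), FOXM1 (-0.16 to 0.031), BUB3 (-0.047 to 0.11), TOP2A (-0.47 to 0.022), CENPE (-0.064 to 0.16), CCNB2 (-0.15 to 0.042) and TTK (-0.38 to 0.098). No reversed member value was called after the turn. The dim filter, quantile normalization, trend and robust eBayes, an added 16 and the mean over probe sets called 19, 18, 17, 18 and 17 members. Apart from changed construction, the causes were not tested.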
